A study of Mus musculus with 12 samples.

Results

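The genes described here are the 6 mitochondrially encoded subunits of respiratory complexes III, IV and V (mt-Cytb, mt-Co1, mt-Co2, mt-Co3, mt-Atp6 and mt-Atp8) and 4 unprocessed pseudogenes on chromosome 1 whose sequence copies one of them (Gm28437, Gm28661, Gm29216 and Gm10925). They were chosen by symbol, with earlier results of these data known, and they are 10 of the 33641 genes listed for every sample. All 10 reached a mean of at least 0.5 TPM (transcripts per 1000000) over the 12 samples, as did 12526 genes in all, and Gm10925 did so mainly through a single library. TPM corrects a gene's reads for its length and then sets the sum over all genes to 1000000 in each sample, so it gives a gene's share of the transcripts and not an amount per cell. The 10 genes together held between 37.0% and 46.6% of all TPM.

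RNA was sequenced from the left ventricle (LV) and the right ventricle (RV) of mice in which human phospholamban (PLN), the inhibitor of the cardiac calcium pump SERCA2a, replaces the mouse protein. WT mice carry the normal human coding sequence. R14del mice were heterozygous for the human sequence that lacks the arginine codon named in the allele, although the sample titles call them KO. Each of the 4 groups (LV WT, RV WT, LV R14del and RV R14del) had 3 samples. The mice were males of 12 to 14 weeks with no treatment stated, labelled C57BL/6J. The methods describe a hybrid line from chimeric founders crossed to Sox2-Cre mice. Both genotypes carry a human knock-in at the endogenous Pln locus. The R14del heterozygous colony came from WT homozygotes crossed with R14del homozygotes. Whether the WT samples were littermates is not stated, so a difference between lines cannot be told apart from genotype. The study counts its RNA samples by mouse, but does not state whether equal replicate numbers in both ventricles mark the same animal. Each sample is whole ventricular tissue, in which fewer cells of a type and less RNA per cell cannot be told apart.

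Mammalian mitochondria keep a small circular genome that encodes core subunits of the respiratory chain, and all other subunits of these complexes are made from nuclear genes. The mitochondrial genes are read as long polycistronic transcripts, which are cut mostly at the tRNAs lying between the genes and then polyadenylated. Cardiac muscle is rich in mitochondria, and its mitochondrial transcripts are among the most abundant in the cell. Fragments of mitochondrial DNA have also been inserted into nuclear chromosomes during evolution, and reads from a mitochondrial gene can match such a copy equally well.

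The 6 genes lie on the forward strand of the mitochondrial chromosome (GRCm38, GENCODE M21), each annotated as a single exon. Within complex IV, mt-Co1 (chrM:5328-6872, 1545 bases) encodes the catalytic subunit of cytochrome c oxidase, mt-Co2 (chrM:7013-7696, 684 bases) the subunit that takes electrons from cytochrome c, and mt-Co3 (chrM:8607-9390, 784 bases) the remaining core subunit. In complex V, the ATP synthase, mt-Atp6 (chrM:7927-8607, 681 bases) encodes the subunit that forms the proton path beside the rotating ring, and mt-Atp8 (chrM:7766-7969, 204 bases) a small membrane subunit. In complex III, mt-Cytb (chrM:14145-15288, 1144 bases) encodes cytochrome b, which carries the quinol binding sites. The last 43 bases of mt-Atp8 are also the first 43 bases of mt-Atp6, so reads in this stretch belong to both genes. The stretch is shown because mt-Atp8 is compared with mt-Atp6 below, and its capitals (chrM:7927-7969) mark the bases that both genes share:
mt-Atp8 and mt-Atp6: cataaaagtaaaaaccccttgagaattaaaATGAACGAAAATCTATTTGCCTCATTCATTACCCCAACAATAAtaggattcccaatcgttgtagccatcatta

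The 4 copies lie side by side on the reverse strand of chromosome 1, in the order Gm28437 (chr1:24613189-24613971), Gm10925 (chr1:24613974-24614651), Gm28661 (chr1:24614885-24615565) and Gm29216 (chr1:24615706-24616197). Gm28437 matched mt-Co3 at 783 of 783 bases, Gm28661 matched mt-Co2 at 681 of 681 and Gm10925 matched mt-Atp6 at 678 of 678. The ends of the first 2 pairs are shown because within these lengths no base separates gene and copy, and capitals mark the only bases of the gene that its copy lacks:
mt-Co3 end: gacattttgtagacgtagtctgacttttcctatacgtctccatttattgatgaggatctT
Gm28437 end: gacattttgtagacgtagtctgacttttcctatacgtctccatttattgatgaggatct
mt-Co2 end: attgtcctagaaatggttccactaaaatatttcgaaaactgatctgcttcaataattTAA
Gm28661 end: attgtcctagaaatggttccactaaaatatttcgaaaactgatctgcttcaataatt

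Gm29216 (492 bases) covers 31.8% of mt-Co1, from base 1054 to base 1545, and matched it at 486 of 492 bases. Counted from the first base of mt-Co1, with the base of mt-Co1 first, the differences were T1056A, C1057T, A1059G, A1060G, C1062A and A1066T. The first 60 bases of the copy are shown beside mt-Co1 because all 6 differences lie in them, and capitals mark the bases that differ:
Gm29216 start: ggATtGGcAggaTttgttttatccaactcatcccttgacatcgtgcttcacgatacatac
mt-Co1 at Gm29216 start: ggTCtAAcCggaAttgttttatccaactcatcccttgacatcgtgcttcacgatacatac

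The libraries were examined before the comparisons. LV R14del replicate 3 and RV R14del replicate 2 stood apart from the other 10 in how gene and copy shared their reads, and LV R14del replicate 3 was also the lowest for mt-Atp8, so results that rest on them are given with and without them. RV R14del replicate 3 was sequenced in another run according to the name of its deposited table. In both WT replicate 1 samples the summed level of 4 Y-linked genes was at most 0.284 TPM, whereas the other 10 samples had 43.5 to 63.7 TPM, although all mice are stated to be male. Pln lay between 1559 and 1963 TPM over the 12 samples, a level that does not show the deletion and therefore does not check the genotype labels. The summed level of 7 ventricular cardiomyocyte markers was 32139 to 49031 TPM, and none of the 7 was at 0 in any group. The depth behind the TPM values is unknown, so no counting error is given.

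For mt-Co3 and mt-Co2 of complex IV, libraries with a lower listed level of the gene had a higher level of its copy, and the sum varied less than either gene. mt-Co3 was listed at 49354, 57716 and 49032 TPM in LV WT, 61465, 51273 and 49969 in RV WT, 60833, 54780 and 26382 in LV R14del, and 56799, 33421 and 56574 in RV R14del. Its copy Gm28437 was listed at 21403, 5646 and 11129 TPM in LV WT, 8294, 12366 and 12858 in RV WT, 10077, 12651 and 33108 in LV R14del, and 10323, 28526 and 9746 in RV R14del. The libraries in which mt-Co3 was lowest, LV R14del replicate 3 and RV R14del replicate 2, were those in which Gm28437 was highest. As a result the copy held between 8.91% and 55.7% of the pair's TPM. The sum of the pair ranged only from 59490 to 70910 TPM, a highest value 1.19 times the lowest, against 2.33 times for mt-Co3 and 5.86 times for Gm28437. The coefficient of variation over the 12 samples was 6.09% for the sum, 21.1% for mt-Co3 and 57.7% for Gm28437.

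The same was seen for mt-Co2, whose copy was listed above the gene in every library. mt-Co2 was listed at 14426, 26232 and 26482 TPM in LV WT, 21934, 17851 and 14400 in RV WT, 23687, 20146 and 8494 in LV R14del, and 20808, 9319 and 23274 in RV R14del. Gm28661 was listed at 56575, 42954 and 40700 TPM in LV WT, 49460, 56011 and 54775 in RV WT, 54232, 54795 and 59551 in LV R14del, and 54203, 62522 and 52439 in RV R14del. The lowest mt-Co2 and highest Gm28661 values again belonged to LV R14del replicate 3 and RV R14del replicate 2. The copy held 60.6% to 87.5% of the pair, whereas the sum ranged from 67182 to 77919 TPM with a coefficient of variation of 4.69%, against 32.2% for mt-Co2 alone.

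mt-Co1 was listed at 71323 to 91288 TPM and Gm29216 at 39899 to 49403 TPM in 11 of 12 libraries. In the remaining library, RV R14del replicate 2, Gm29216 was listed at 42.7 TPM and mt-Co1 at 91288 TPM, its highest value. The copy held 35.3% to 38.1% of the plain sum in the 11 libraries and 0.0468% in that one. Because Gm29216 is shorter than mt-Co1, reads passed from one to the other do not keep a plain sum of TPM level, and the pair was also summed with each row weighted by its length. On that scale, in TPM of the full mt-Co1 length, RV R14del replicate 2 stood at 91302, within the 85279 to 100206 of all 12, and the coefficient of variation was 5.35% instead of 9.38% for the plain sum.

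Gm10925 was different. Although identical to mt-Atp6 over its whole length, it was listed at 35.0 TPM in LV R14del replicate 3, 6.50 TPM in LV WT replicate 3, 0.367 TPM in LV WT replicate 1 and 0.117 TPM in LV R14del replicate 2, and at no more than 0.000602 TPM in the other 8 libraries. It never held more than 0.0823% of the sum with mt-Atp6, so that sum and mt-Atp6 alone have the same coefficient of variation, 11.2%. How the mapping software shared reads between identical sequences is not given in the sources used here, and its part in these shares was not tested.

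**Figure D1:**
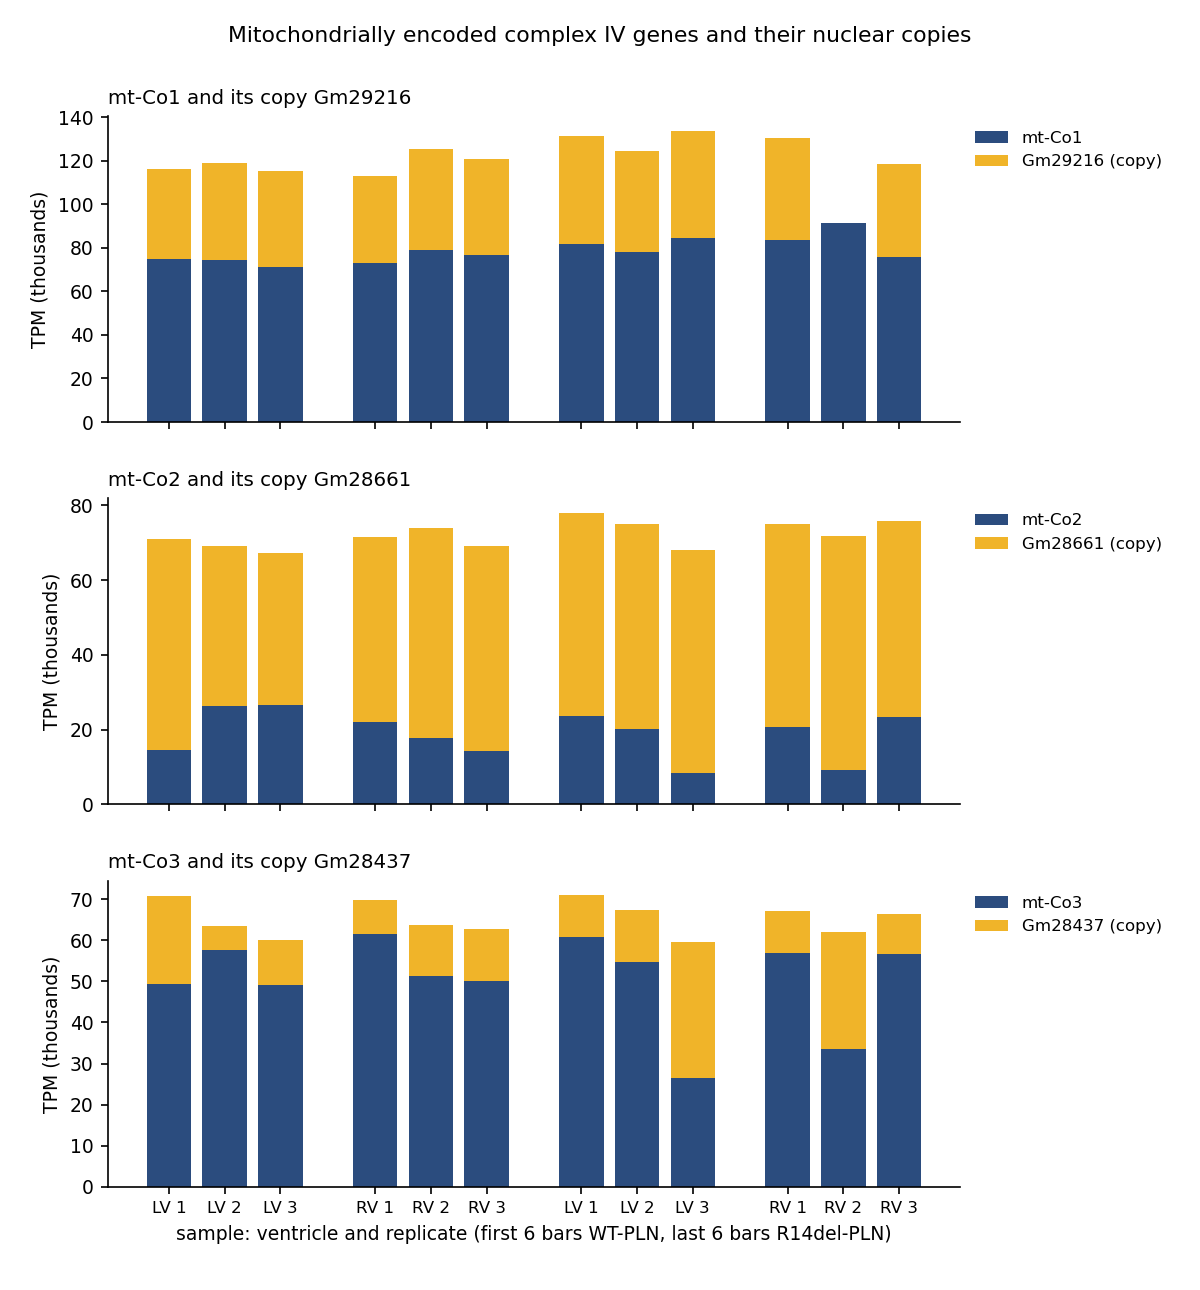
Stacked bars give the TPM listed for each complex IV gene and, above it, for its chromosome 1 copy in each of the 12 samples. The split of the mt-Co3 and mt-Co2 pairs shifts in LV R14del replicate 3 and RV R14del replicate 2 and that of the mt-Co1 pair in the latter, while the height of the mt-Co3 pair stays between 59490 and 70910 TPM and that of the mt-Co2 pair between 67182 and 77919 TPM.

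The share taken by a copy was compared between groups with exact permutation tests, 2-sided, which with 3 samples against 3 cannot give a p below 0.1. For Gm28437 the exact p was 0.6 for R14del against WT in LV and 0.8 in RV. The corresponding exact permutation p was 0.3 and 0.9 for Gm28661, and 0.9 and 0.4 for Gm29216. For RV against LV with genotypes kept apart, where the smallest possible p is 0.005, the exact permutation p was 0.670, 0.525 and 0.0550 for Gm28437, Gm28661 and Gm29216. For Gm10925 the exact permutation p was 0.9 for R14del against WT in LV, 0.3 in RV and 0.0250 for RV against LV. Its share never exceeded 0.0823% of its pair, and nothing is read from these values. Because the split of gene and copy varied between libraries, levels below are given for their sums wherever a copy holds an appreciable share.

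Compared per length in TPM, the 3 units of complex IV stood above mt-Cytb of complex III in all 12 libraries. The length-weighted sum of mt-Co1 and Gm29216 was the highest of the 6 units in 11 of 12 libraries, and mt-Cytb was the lowest in 11 of 12. The sum of mt-Co2 and Gm28661 ranked 2 or 3 in all 12, and the sum of mt-Co3 and Gm28437 ranked 3 to 5. These neighbours overlapped over the 12 samples, at 67182 to 77919 TPM and 59490 to 70910 TPM. mt-Atp6 with its copy, at 42547 to 65635 TPM, overlapped the mt-Co3 sum and ranked 5 in 10 of 12 libraries. mt-Atp8 had no fixed place and took every rank from 1 to 6. Among all listed genes, mt-Co1 ranked 1 or 2, mt-Cytb 4 to 7 and mt-Atp8 1 to 13.

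**Figure D2:**
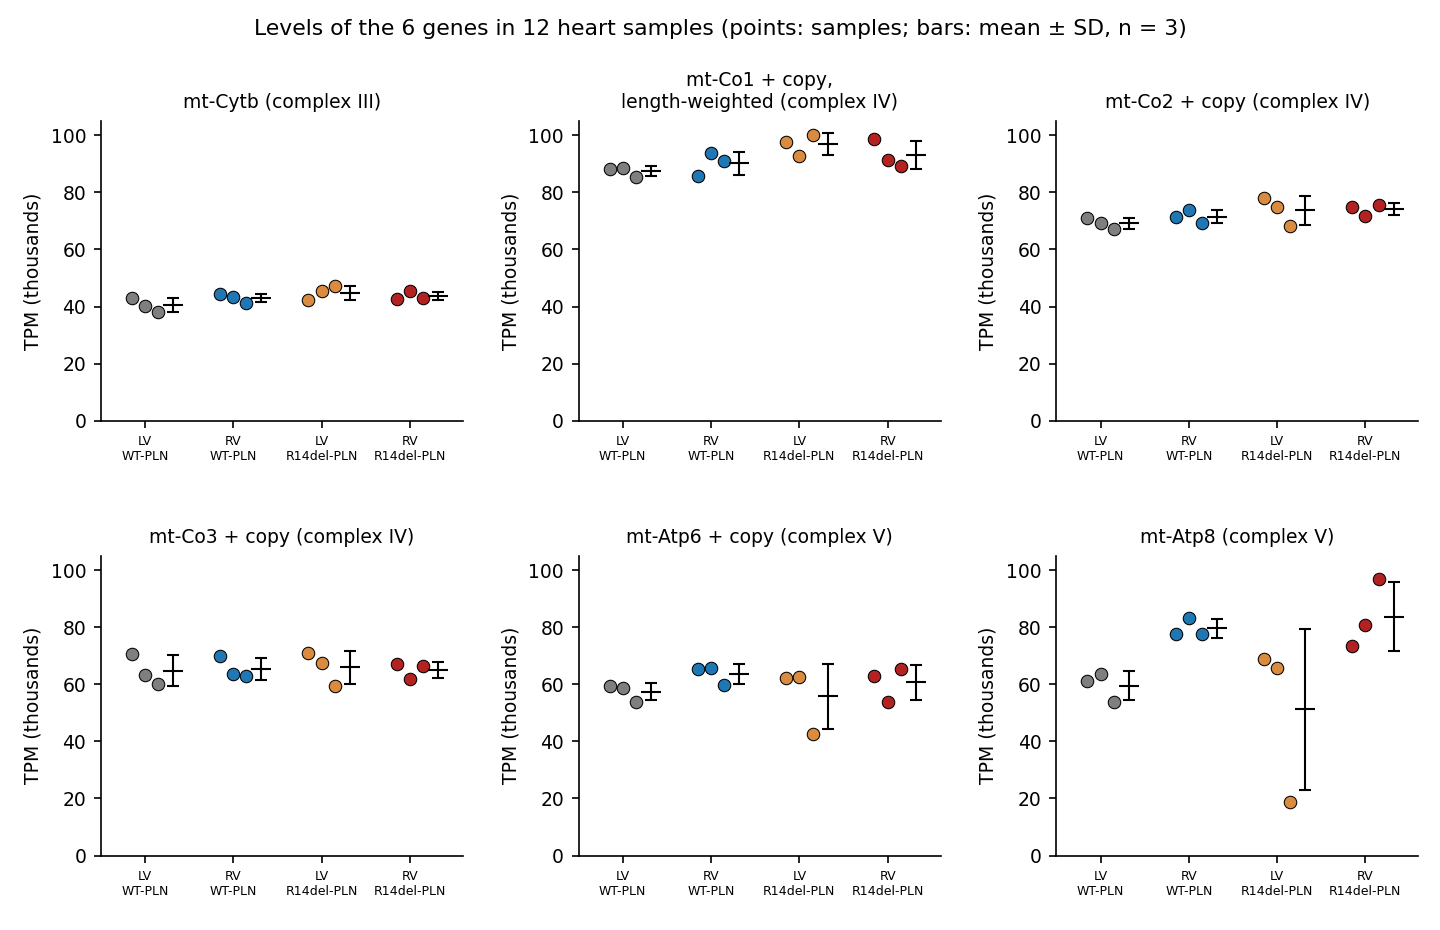
Points are single samples and bars the mean ± SD (n = 3) of the TPM of the 6 units in the 4 groups, complex IV genes summed with their copies and mt-Co1 length-weighted. The mt-Cytb means lie between 40490 and 44864 TPM with overlapping points in all 4 groups, whereas mt-Atp8 has both RV groups above both LV groups.

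The first comparison asks whether R14del changes these transcripts in each ventricle. No member passed the test in either ventricle, and for most units R14del and WT samples overlapped. In LV, 0 of 10 genes and 0 of 4 sums reached an adjusted p of at most 0.05 in limma with a fold of at least 1.5, against 0.519% of all genes tested (65 of 12526), and 0 of 10 had an unadjusted p of at most 0.05. In RV, 0 of 10 genes and 0 of 4 sums did so, against 0.271% of all genes (34 of 12526), again with 0 of 10 at an unadjusted p of at most 0.05. The 10 genes had a median log2 fold change of 0.15 (LV) and 0.010 (RV), beside -0.09 and -0.003381 over all genes tested.

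mt-Cytb, the complex III gene, with a coefficient of variation of 5.60% over the 12 samples, was measured at 43050, 40302 and 38119 TPM in LV WT and 42166, 45397 and 47030 in LV R14del. In RV it was measured at 44260, 43245 and 41373 TPM in WT and 42611, 45338 and 42964 in R14del. The groups overlapped in both ventricles. Its log2 fold change on the log2(TPM + 1) scale was 0.15 (SE 0.11, 95% interval -0.08 to 0.38, limma adjusted p 0.737) for LV and 0.02 (interval -0.21 to 0.26, limma adjusted p 1.0) in RV.

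For complex IV, mt-Co1 was measured at 75107, 74401 and 71323 TPM in LV WT and 81781, 77989 and 84487 in LV R14del. The 3 R14del samples all lay above the 3 WT samples, as was also so for Gm29216. These 2 of 10 genes are the ones whose LV groups did not overlap, against 11.0% of all genes with groups apart in either direction and 2.48% with R14del higher. They are a gene and its near-identical copy, so they do not count as independent genes. The difference did not pass the test, with a log2 fold change of 0.15 for mt-Co1 (SE 0.11, 95% interval -0.10 to 0.39, limma adjusted p 0.756), and the length-weighted sum gave 0.15 (interval -0.04 to 0.33). In RV, mt-Co1 was 72992, 79207 and 76824 TPM in WT and 83633, 91288 and 75767 in R14del. There the groups overlapped, as they did for all 10 genes in RV, where 11.0% of all genes had groups apart. The length-weighted RV log2 fold change was 0.05 (interval -0.14 to 0.23), whereas the plain sum gave -0.09 (interval -0.35 to 0.17), and 0.06 without RV R14del replicate 2.

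The mt-Co2 sum was 71001, 69186 and 67182 TPM in LV WT and 77919, 74941 and 68045 in LV R14del. In RV it was 71395, 73862 and 69176 TPM in WT and 75011, 71841 and 75712 in R14del. The groups overlapped in both ventricles, with log2 fold changes of 0.09 (95% interval -0.10 to 0.28, limma adjusted p 0.823) and 0.05 (interval -0.14 to 0.25, limma adjusted p 1.0). The mt-Co3 sum was 70757, 63363 and 60161 TPM in LV WT, 70910, 67431 and 59490 in LV R14del, 69759, 63639 and 62827 in RV WT, and 67122, 61947 and 66320 in RV R14del. Its groups overlapped as well, at 0.03 (interval -0.20 to 0.25, limma adjusted p 0.967) in LV and -0.01 (interval -0.23 to 0.22, limma adjusted p 1.0) in RV. Read without their copies, mt-Co3 stood at -0.22 (LV) and -0.18 (RV) on the log2 scale and mt-Co2 at -0.44 (LV). Across the alternatives, which include leaving out LV R14del replicate 3 and RV R14del replicate 2, these values reached 0.15, 0.07 and 0.02. None of these signs was therefore stable. The intervals exclude a 1.5-fold change of either sum, which is no limit on the gene alone. That of mt-Co2 alone in LV ran from -1.30 to 0.43.

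In complex V, mt-Atp6 was measured at 59545, 58837 and 53928 TPM in LV WT, 62054, 62654 and 42512 in LV R14del, 65382, 65635 and 59599 in RV WT, and 62997, 53784 and 65393 in RV R14del. The lowest values belonged to LV R14del replicate 3 and RV R14del replicate 2, and the groups overlapped. With its copy, the log2 fold change was -0.06 (95% interval -0.37 to 0.24, limma adjusted p 0.932) for LV and -0.07 (interval -0.38 to 0.24, limma adjusted p 1.0) in RV, and 0.12 and 0.02 without these 2 libraries. mt-Atp8 was measured at 60981, 63487 and 53728 TPM in LV WT and 68903, 65766 and 18804 in LV R14del. In RV it was 77736, 83314 and 77689 TPM in WT and 73224, 80903 and 96835 in R14del. LV R14del replicate 3 held the lowest value by a wide margin and RV R14del replicate 3, the library from the other run, the highest. The mt-Atp8 log2 fold change was -0.43 (interval -1.21 to 0.35, limma adjusted p 0.777) in LV, 0.18 (limma adjusted p 0.394) without LV R14del replicate 3, and 0.06 (interval -0.72 to 0.84, limma adjusted p 1.0) in RV.

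Of the copies, Gm29216 had the largest fitted difference, a log2 fold change of -3.28 in RV (95% interval -7.26 to 0.69, limma adjusted p 0.928). It rested on RV R14del replicate 2 and was 0.05 without that library. For the interaction of genotype and ventricle, 0 of 10 genes were called in limma (0% of all genes tested), with 0 of 10 at an unadjusted p of at most 0.05.

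**Figure D3:**
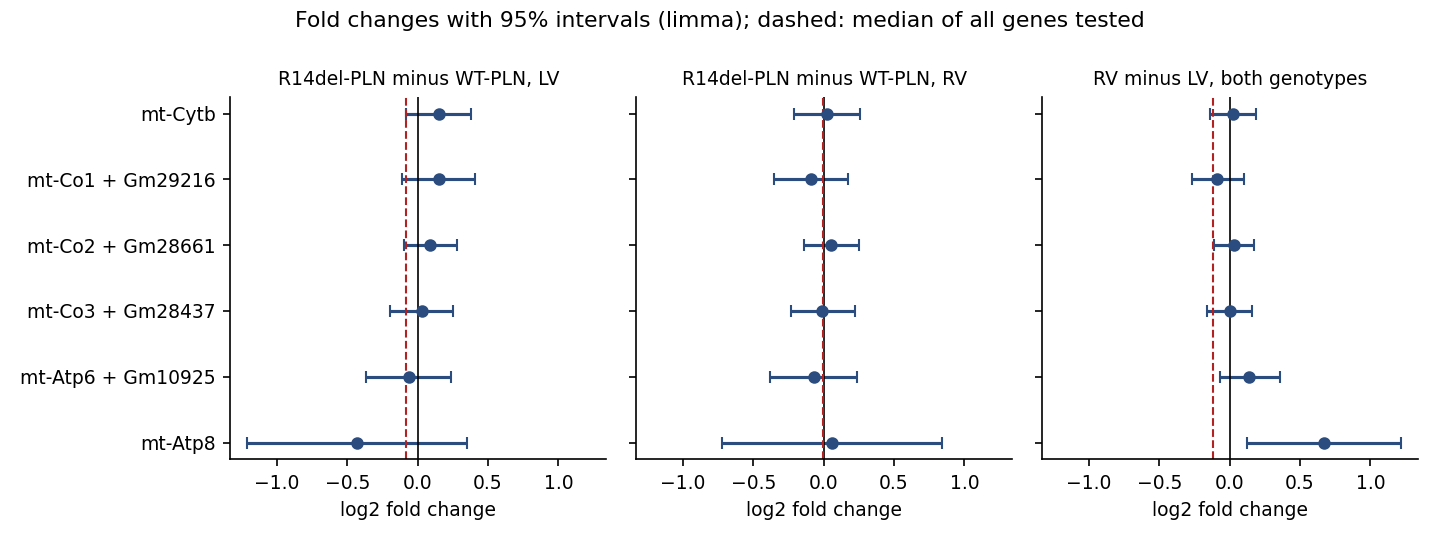
Log2 fold changes with 95% intervals of the 6 units for R14del against WT in LV, R14del against WT in RV, and RV against LV averaged over genotypes, with the median over all genes tested as a dashed line. The complex IV and mt-Atp6 units are plain sums with the copies. For mt-Co1 the plain sum lies at -0.09 in RV and -0.09 in RV against LV, where the length-weighted sum gave 0.05 and -0.01. Only the interval of mt-Atp8 in RV against LV, 0.12 to 1.22, lies wholly on one side of 0. Its limma adjusted p was 0.165.

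The second comparison sets RV against LV. mt-Atp8 was higher in all 6 RV samples than in all 6 LV samples, at 73224 to 96835 TPM against 18804 to 68903 TPM, but it did not pass the test. The group means were 59398 ± 5068 TPM in LV WT, 79580 ± 3234 in RV WT, 51158 ± 28063 in LV R14del and 83654 ± 12043 in RV R14del (SD, n = 3). Averaged over genotypes the log2 fold change was 0.67 (SE 0.26, 95% interval 0.12 to 1.22), which is a fold of 1.59, with an unadjusted p of 0.0208 and an adjusted p of 0.165 in limma. It was 0.36 (SE 0.084, limma adjusted p 0.0915) without LV R14del replicate 3 and 0.37 (limma adjusted p 0.0634) without RV R14del replicate 2 as well. Within WT it was 0.42 (interval -0.35 to 1.20, limma adjusted p 0.553) and within R14del 0.92 (interval 0.14 to 1.7, limma adjusted p 0.737), and the latter was 0.30 (limma adjusted p 0.999) without LV R14del replicate 3. The difference between the genotypes was 0.49 (limma adjusted p 1.0) and turned to -0.12 (limma adjusted p 0.782) without that library.

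Averaged over genotypes, 0 of 10 genes and 0 of 4 sums were called in limma, against 0.263% of all genes tested (33 of 12526), and 1 of 10, mt-Atp8, had an unadjusted p of at most 0.05. It was also the 1 of 10 with all RV samples apart from all LV samples, against 5.58% of all genes in either direction and 0.168% with RV higher. Within WT, 0 of 10 were called in limma (0% of all genes), with 0 of 10 at an unadjusted p of at most 0.05, and groups lay apart for mt-Atp8 and mt-Atp6, both higher in RV, against 26.1% of all genes in either direction and 0.974% with RV higher. The WT values of Gm10925 did not overlap either, with RV lower as for 25.2% of all genes, but the nearest were 0.000602 and 0.000595 TPM and nothing is read from them. Within R14del, 0 of 10 were called in limma (0% of all genes), with 1 of 10 at an unadjusted p of at most 0.05, and groups lay apart for 1 of 10, mt-Atp8, against 9.98% of all genes in either direction and 1.26% with RV higher. The averaged median log2 fold change over all genes tested was -0.12.

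The other members differed less between ventricles. With its copy, mt-Atp6 had an averaged log2 fold change of 0.14 (95% interval -0.07 to 0.36, limma adjusted p 0.429), and mt-Cytb 0.02 (limma adjusted p 0.883). The sums for complex IV lay near 0, with 0.03 for mt-Co2 (interval -0.11 to 0.17, limma adjusted p 0.807), 0.00060 for mt-Co3 (interval -0.16 to 0.16, limma adjusted p 0.998) and -0.01 for the length-weighted mt-Co1 (interval -0.14 to 0.12). These intervals exclude a 1.5-fold difference in either direction.

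The difference in mt-Atp8 was also read within each library, as its share of the TPM of the 10 genes. This share does not move with genes outside the 10, but it does move with the split of reads between mt-Co1 and the shorter Gm29216. In RV R14del replicate 2 the plain sum of that pair was 91331 TPM, the lowest of the 12 libraries. The mt-Atp8 share was 13.8% to 15.3% in LV WT (14.5% ± 0.747, SD, n = 3) and 17.6% to 18.3% in RV WT (18.0% ± 0.353). It was 15.2%, 14.9% and 5.09% in LV R14del and 16.2%, 20.0% and 20.8% in RV R14del. All RV samples lay above all LV samples. The difference of RV minus LV was 3.43 percentage points in WT and 7.25 in R14del, each with an exact permutation p of 0.1, the smallest that 3 against 3 allow. Without LV R14del replicate 3 the R14del difference was 3.92 points. Averaged over genotypes it was 5.34 percentage points (exact permutation p 0.005, 2-sided, the smallest these samples can give if unpaired). It was 3.68 without LV R14del replicate 3 (exact permutation p 0.01) and 3.43 without both libraries that stood apart (exact permutation p 0.0167). Fewer samples leave fewer arrangements, so these p-values cannot be compared with 0.005. The permutation takes LV and RV samples as independent and does not allow for samples from the same heart. With R14del against WT the share differed by -2.81 points in LV (exact permutation p 0.8) and 1.02 in RV (exact permutation p 0.5), and the LV difference turned to 0.522 points without LV R14del replicate 3. In all, 70 such tests were made on 14 shares, 56 of them on 3 against 3 samples, of which 7 stood at the smallest possible p, and 14 over both genotypes, of which 4 gave 0.05 or less, and these p-values are not adjusted for that number.

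Beside mt-Atp6, with which it shares the 43 bases shown above, mt-Atp8 stood at 1.02, 1.08 and 0.996 times the mt-Atp6 level in LV WT and 1.19, 1.27 and 1.30 times in RV WT. In R14del the ratio was 1.11, 1.05 and 0.442 in LV and 1.16, 1.5 and 1.48 in RV. Every RV ratio exceeded every LV ratio, and no test was run on it. Because the genes overlap, no tRNA lies between them at which the transcript could be cut. The ratio may thus compare parts of a shared RNA, and whether mt-Atp8 and mt-Atp6 were read from separate transcripts was not tested.

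**Figure D4:**
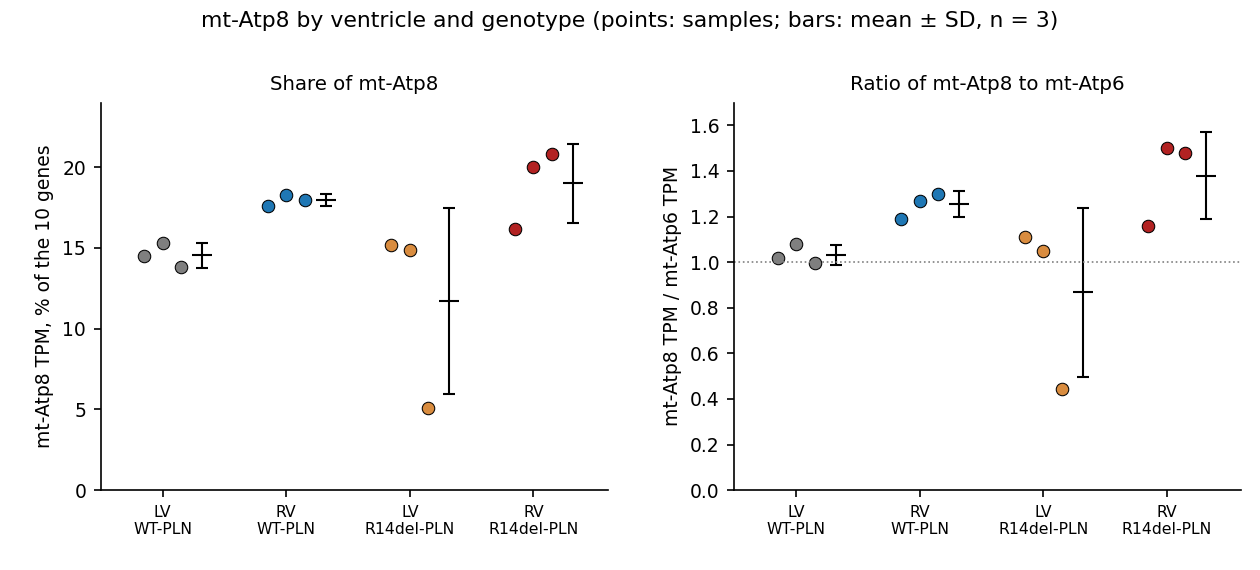
mt-Atp8 in each sample as a percent of the TPM of the 10 genes and as a ratio to mt-Atp6, by group, with points for samples. The 6 RV samples lie at 16.2% to 20.8% and the 6 LV samples at 5.09% to 15.3%, with LV R14del replicate 3 far below the others.

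mt-Atp8 is the shortest of the members, and the libraries differed in how genes of different length were read. For genes neither mitochondrially encoded nor members, the log2 deviation from each gene's own median over the 12 samples was taken. The median deviation was compared between genes of up to 1000 bases (830 genes) and genes of more than 8000 bases (676 genes). Short minus long, it was 0.20, 0.06 and -0.00 in LV WT and 0.09, -0.05 and -0.22 in RV WT. In R14del it was 0.17, 0.02 and 0.05 in LV and 0.07, -0.36 and -0.09 in RV. The part of gene length in the mt-Atp8 difference was not tested. No red cell, endothelial or ventricular cardiomyocyte marker passed the test in limma. Summed levels of the first 2 lists lay apart between ventricles in WT, with RV lower, and overlapped in R14del. Of all single genes tested, 26.1% lay apart in WT (25.2% with RV lower) and 9.98% in R14del. The summed atrial cardiomyocyte, fibroblast, smooth muscle and pericyte, macrophage and adipocyte markers overlapped between ventricles in both genotypes. The summed red cell markers (5 of 5 above 0 in every group) stood at 2087 to 2316 TPM in LV WT, 1461 to 1736 in RV WT, 1093 to 2142 in LV R14del and 956 to 1368 in RV R14del. The summed endothelial markers (5 of 5 above 0) stood at 522 to 556 TPM in LV WT, 396 to 438 in RV WT, 479 to 703 in LV R14del and 447 to 573 in RV R14del. The summed ventricular cardiomyocyte markers stood at 37656 to 41603, 34123 to 37778, 34477 to 49031 and 32139 to 42964 TPM in the same order. Their part in the mitochondrial levels was not tested.

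The remaining subunits of the 3 complexes are nuclear genes, and in TPM they lay on the other side of 0 from mt-Atp8 and mt-Atp6. Averaged over genotypes, RV was below LV for 9 of 9 nuclear subunits of complex III (median log2 fold change -0.21), 15 of 16 of complex IV (-0.25) and 18 of 18 of complex V (-0.18), beside a median of -0.12 over all genes, and 0 of these 43 passed the test in limma. The summed complex III subunits stood at 6103 to 6438 TPM in LV WT, 5319 to 5717 in RV WT, 5672 to 7325 in LV R14del and 4940 to 5678 in RV R14del. The genes with the smallest adjusted p were Uqcrq, Uqcr11 and Uqcr10 in complex III, Cox4i2, Cox8b and Cox6a2 in complex IV, and Atp5g1, Atp5e and 2010107E04Rik in complex V. Uqcrq, a small subunit of complex III, had means of 803 ± 48.1 TPM in LV WT, 628 ± 47.4 in RV WT, 737 ± 10.1 in LV R14del and 541 ± 143 in RV R14del (SD, n = 3), a log2 fold change of -0.42 (limma adjusted p 0.0820). Cox4i2, an isoform of subunit 4 of cytochrome c oxidase, had means of 8.64 ± 1.07, 5.12 ± 0.711, 7.89 ± 1.5 and 5.68 ± 1.10 TPM in the same order, a log2 fold change of -0.54 (limma adjusted p 0.0555). Atp5g1, which encodes the c subunit of the rotating ring, had a log2 fold change of -0.35 (limma adjusted p 0.0908). Scaled to the nuclear genes as described next, these values were -0.25 for Uqcrq (limma adjusted p 0.407), -0.43 for Cox4i2 (0.112) and -0.18 for Atp5g1 (0.488). The exception among the 43, named after its value was seen, was Cox6b2 in complex IV at 0.57.

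Because TPM sums to a constant, a higher mitochondrial share lowers every nuclear gene, and the comparison was repeated on values scaled to the nuclear genes alone, which moved the median of all genes from -0.12 to 0.01. On that scale the medians were -0.05 for complex III (3 of 9 above 0), -0.08 for complex IV (4 of 16) and -0.02 for complex V (7 of 18). The mitochondrial units then stood at 0.08 for mt-Co1, 0.19 for mt-Co2, 0.16 for mt-Co3, 0.19 for mt-Cytb, 0.31 for mt-Atp6 and 0.84 for mt-Atp8 (limma adjusted p 0.258), the complex IV and mt-Atp6 values being sums with the copies. All 6 units were above 0 here, which for the plain mt-Co1 sum was a change of sign from -0.09. The 7 mitochondrially encoded complex I genes, all but mt-Nd6 read from the same strand as the members, lay above 0 on both scales, 7 of 7, with medians of 0.16 in TPM and 0.33 scaled. Their summed level was 154609 ± 8346 TPM in LV WT, 174181 ± 8602 in RV WT, 164966 ± 17242 in LV R14del and 185239 ± 11451 in RV R14del (SD, n = 3).

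**Figure D5:**
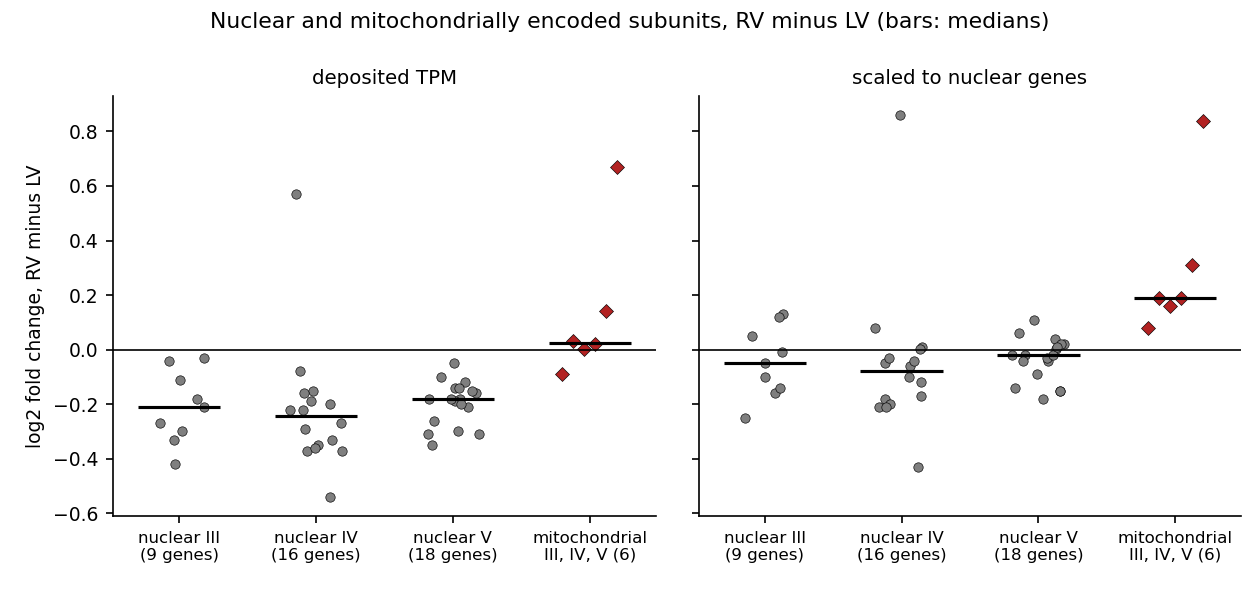
Averaged RV minus LV log2 fold changes of the nuclear subunits of complexes III (9 genes), IV (16) and V (18) beside the 6 mitochondrial units, in TPM and scaled to nuclear genes. The mt-Co1 unit is the plain sum with its copy. In TPM the nuclear medians lie at -0.21, -0.25 and -0.18, and after scaling at -0.05, -0.08 and -0.02.

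Genes that act on mitochondrial transcripts showed no call either. Of 20 tested genes for mitochondrial RNA processing and stability, 4 were above 0 and 16 below in RV against LV (median -0.12, equal to that of all genes), and 0 passed the test in limma. Those with the smallest adjusted p were Slirp, Rexo2 and Fastk. Slirp, which stabilises mitochondrial mRNAs together with Lrpprc, had means of 40.1 ± 1.97 TPM in LV WT, 27.8 ± 3.43 in RV WT, 38.8 ± 7.67 in LV R14del and 32.2 ± 4.31 in RV R14del (SD, n = 3), a log2 fold change of -0.38 (limma adjusted p 0.0893), or -0.23 (limma adjusted p 0.241) scaled to the nuclear genes. Of 9 tested mitochondrial transcription genes 4 were above 0 and 5 below, of 8 biogenesis regulators 2 and 6, and of 26 assembly factors 0 and 26 (median -0.16), with 0 passing the test in limma in each list. Scaled to the nuclear genes, the assembly factors were split evenly, 13 above and 13 below.

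For R14del against WT, the nuclear subunits had medians of -0.04, -0.08 and -0.08 for complexes III, IV and V in LV and -0.10, -0.14 and -0.12 in RV, with 0 of 43 called in limma. In the RV, 0 of 18 complex V subunits lay above 0. The 7 complex I genes from the mitochondrial genome had medians of 0.06 in LV (7 of 7 above 0) and 0.03 in RV (5 of 7), also with none called.

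Genes were also ranked by how closely their log2 TPM followed the summed level of the 10 members over the 12 samples. Mitochondrially encoded genes were left out of this search, so it does not compare them with nuclear genes. Among the remaining genes tested, the closest were Rps12l1 (Pearson r 0.83), Gm10171 (0.81), Gm13339 (0.74), Gm12396 (0.70) and Nrxn2 (0.69). These points share libraries and the constant sum of TPM, and the values are given as a description. Without LV R14del replicate 3, r was 0.85, 0.65, 0.66, 0.65 and 0.48 for the same genes. Gm13339 is itself a nuclear copy, 96.7% identical to mt-Nd2, listed at 0.273 to 2.18 TPM.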

How the data were processed

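RNA was extracted from frozen ventricles with Trizol, and libraries were made with an Illumina TruSeq RNA kit, described in the methods as stranded and polyA-selected. The authors mapped reads to GRCm38 in CLC Genomics Workbench and deposited TPM values per gene for each sample, and these carry no read counts. Here, groups and replicate numbers came from the labels. The members and gene lists were chosen with earlier results of these data known. Named genes were the members, their sums with the copies, and the 3 genes with the smallest adjusted p in each nuclear subunit list and in the RNA processing list. The 5 genes most correlated with the members were also named, mitochondrially encoded genes being left out of that search.

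Genes averaging 0.5 TPM or more were fitted as log2(TPM + 1) on 4 group means in limma 3.58.1 (R 4.3.3) with an intensity trend, over all 12526 genes, and p-values were adjusted by Benjamini-Hochberg. A call needed an adjusted p up to 0.05 together with a fold of 1.5 or more. The fit was tested on simulated data. Shares were compared by exact permutation of samples taken as unpaired (NumPy 2.4.6). Each copy was aligned to its gene without gaps at the best offset, with GENCODE M21 transcripts on GRCm38. Other rows close in sequence were found with BLAST 2.17.0. Rows of the mitochondrial rRNA and tRNA genes were not analysed here.

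Alternatives were other pseudocounts, filters and scalings, the replicate block, and leaving out libraries, 3 of the alternatives being added after the data were seen (both libraries that stood apart left out, length-weighted sums, and scaling without any copy). Same-numbered LV and RV samples deviated together in WT, with correlations of 0.321 to 0.657 over genes. WT pairs with different numbers gave -0.457 to 0.000824. In R14del the ranges overlapped, 0.0542 to 0.389 for equal numbers and -0.396 to 0.16 for different ones. Both WT replicate 1 samples also shared the low Y-linked level. The labels do not say whether a number marks a mouse.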

Additional observations from a re-analysis of the deposited data

How the results depend on the processing

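No alternative that was run called any member or sum, and the smallest limma adjusted p was 0.0634, for mt-Atp8 in RV against LV. Of the 24 log2 fold changes followed through the alternatives, the following changed sign. For R14del against WT in LV, mt-Atp6 with its copy was 0.04 under upper quartile scaling, 0.02 scaled to nuclear genes, 0.03 scaled without any copy and 0.12 without the 2 libraries that stood apart, and mt-Atp8 was 0.18 without them. In RV, the mt-Co3 sum was 0.03 scaled to nuclear genes, 0.04 scaled without any copy, 0.04 without WT replicate 1 and 0.03 without those 2 libraries, without which the mt-Co1 sum was 0.06 (0.05 length-weighted), mt-Atp6 0.02, mt-Cytb -0.01 and Gm29216 0.05. mt-Atp8 in RV was -0.16 under quantile normalization and -0.05 without RV R14del replicate 3. For RV against LV, quantile normalization, which gives equal values to equal ranks and so shows only changes of rank, left mt-Atp8 at 0.49 and gave -0.14 for the mt-Co3 sum, -0.12 for mt-Co2, -0.08 for mt-Atp6, -0.04 for mt-Cytb and -0.16 for mt-Co1 alone. The mt-Co3 sum was -0.01 without RV R14del replicate 3 and -0.02 without those 2 libraries. The mt-Co1 sum was 0.04 under upper quartile scaling, 0.08 scaled to nuclear genes and 0.09 scaled without any copy. With complex I genes in the denominator the mt-Atp8 share was 10.6% in LV WT, 12.9% in RV WT, 8.44% in LV R14del and 13.3% in RV R14del, and that alternative gives no value for the total share or for copy shares.

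Leaving out 1 library at a time gave log2 fold changes for R14del against WT of -0.03 to 0.10 (mt-Co3 sum), -0.16 to 0.12 (mt-Atp6) and -0.75 to 0.18 (mt-Atp8) in LV, and of -0.03 to 0.04 (mt-Co3 sum), -0.20 to 0.06 (mt-Co1 sum), -0.12 to 0.02 (mt-Atp6), -0.05 to 0.15 (mt-Atp8), -0.01 to 0.04 (mt-Cytb) and -4.98 to 0.05 (Gm29216) in RV. For RV against LV it gave -0.04 to 0.03 for the mt-Co3 sum, 0.36 to 0.83 for mt-Atp8 and 3.68 to 6.21 percentage points for the mt-Atp8 share. With the replicate number as a block, shared by both genotypes, mt-Atp8 in RV against LV kept 0.67 with a limma adjusted p of 0.138. If equal numbers within a genotype are taken to mark a mouse, the limma adjusted p was 0.136 with mouse as a random block. With mouse as a fixed block it was 0.121. None of these blocks changed a call. With 3 samples a group and no read counts, differences smaller than the printed intervals could not be resolved.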

Other observations

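The 4 copies were not the only listed rows close in sequence to mitochondrially encoded genes. Gm28438, 99.7% identical to mt-Nd3, was listed at 8562 to 15136 TPM over the 12 samples. Gm10222 and Gm28439, each identical to part or all of a complex I gene (mt-Nd4l and mt-Nd4), were listed at 0 in all 12. On chromosome 2, Gm13340, 97.6% identical to mt-Co1 over 1545 bases, was listed at 5.19 to 30.9 TPM, and Gm13341, 95.9% identical to mt-Co2, at 1.72 to 10.3 TPM. Identical copies were thus listed anywhere from 0 to 62522 TPM (Gm28661), and no comparison between groups was made for these genes. They were named after their values were seen.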
